A study of Mus musculus with 15 samples.

Results

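The regions described here are CpG-dense stretches of the mouse genome that carried almost no DNA methylation in lungs of wild-type mice. Each is a tile of 1000 bases, on the mm10 build, with at least 20 CpG cytosines read 10 or more times in all 15 libraries. Its mean methylation over 6 wild-type libraries was below 5%. Of 212203 autosomal tiles with such a cytosine, 17484 were CpG-dense and 14923 of these (85.4%) were below the limit. They held 827437 cytosines, a median of 47 per tile, and a tile was covered by a median of 7360 reads in a library. The tiles were chosen by their number of cytosines and by the methylation of those 6 wild-type libraries. The wild-type level is therefore a description, and near the limit the choice favours higher heterozygous values.

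The study profiled DNA of whole lung by reduced representation bisulfite sequencing (RRBS) and its enhanced form (ERRBS), which read CpG-rich fragments after conversion of unmethylated cytosine. The labels gave 7 wild-type littermates (3 male, 4 female, aged 48 to 55 weeks) and 8 transgenic mice heterozygous for Ctcf (4 male, 4 female, aged 46 to 54 weeks). All mice of both genotypes had received urethane, a lung carcinogen, once at 14 days at 1 mg per g of body weight, and no untreated mice were among them. Whole lung mixes many cell types, so a level of a few percent can be a few cells with full methylation or many with little, and these cannot be told apart. The tables hold methylation and no expression, so the tissue was not checked against marker transcripts.

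CpG islands, the CpG-dense stretches that cover most gene starts, are known to stay free of methylation in normal tissue, and slow gain of methylation there is a known feature of ageing and cancer. CTCF, a DNA-binding factor with zinc fingers, sits at insulators and loop anchors and is known for binding best to unmethylated sites. The TET enzymes oxidise methylated cytosine and DNMT enzymes place the mark.

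2 libraries went against their labels and bear on every comparison by genotype. Wild-type replicate 2, labelled male, listed 300 cytosines on chromosome Y against 1915 and 1976 in the other wild-type males, and its coverage over 8 cytosines of Ctcf, on a scale relative to the library, was 3.01, against 5.23 to 6.02 for the rest of the wild-type group. Heterozygous replicate 5, labelled female, listed 1985 cytosines on chromosome Y against 271 to 301 in the other heterozygous females, with 4.94 over Ctcf, against 1.69 to 3.27 for the rest of the heterozygous group. Both stay in their labelled groups where all 15 libraries are given, and results are given again for the 13 libraries without them. Total coverage of the libraries was 217363415 to 302342776 reads over cytosines, and the median cytosine of the tiles was read 123 to 186 times.

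The tiles lay mostly at gene starts. A start of the RefSeq promoter list fell inside 7454 of them (49.9%) and within 1000 bases of another 3305. With no listed start that near, 3685 lay inside a gene and 479 outside genes. The list lacked starts of many genes, holding 22 of 39 Hox genes and 53 of 73 ribosomal protein genes. Counts and shares of tiles with a start are therefore lower limits throughout. RefSeq promoter sequences of the GRCm38.p6 build were at hand for 9552 starts in the tiles. All 212927 measured cytosines inside those sequences fell on a CpG of the sequence. The median such promoter, from 250 bases before to 50 bases after the start, held 26 CpGs, against 7 over the 31365 autosomal promoters of the table. The 250 bases before the starts of 4 genes are shown to let the values below be read on the DNA itself: Tet3 and Cacna1c, whose tiles were called by genotype, Foxd3, a neural crest regulator at the upper end of the level, and Dnmt1, the maintenance methyltransferase, at the lower end. Capitals mark CpGs with a cytosine read in all 15 libraries, and each runs 5′ to 3′ on the strand of the gene.
Tet3, chr6:83441679-83441928, minus strand: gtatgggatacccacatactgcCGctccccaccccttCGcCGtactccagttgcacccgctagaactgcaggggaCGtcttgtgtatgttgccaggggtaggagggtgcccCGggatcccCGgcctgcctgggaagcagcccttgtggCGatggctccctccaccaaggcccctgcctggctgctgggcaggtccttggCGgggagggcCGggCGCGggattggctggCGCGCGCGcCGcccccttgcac
Cacna1c, chr6:119108496-119108745, minus strand: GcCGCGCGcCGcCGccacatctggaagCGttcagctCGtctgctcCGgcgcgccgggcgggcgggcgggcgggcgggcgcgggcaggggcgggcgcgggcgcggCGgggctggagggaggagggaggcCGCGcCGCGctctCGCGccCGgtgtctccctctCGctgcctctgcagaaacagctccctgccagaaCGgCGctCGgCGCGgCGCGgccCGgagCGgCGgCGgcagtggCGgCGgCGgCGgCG
Foxd3, chr4:99656049-99656298, plus strand: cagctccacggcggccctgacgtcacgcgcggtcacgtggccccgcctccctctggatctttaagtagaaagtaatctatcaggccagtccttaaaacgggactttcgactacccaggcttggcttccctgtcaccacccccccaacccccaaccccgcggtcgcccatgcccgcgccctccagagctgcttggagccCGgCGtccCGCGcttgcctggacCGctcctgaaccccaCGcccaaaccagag
Dnmt1, chr9:20952624-20952873, minus strand: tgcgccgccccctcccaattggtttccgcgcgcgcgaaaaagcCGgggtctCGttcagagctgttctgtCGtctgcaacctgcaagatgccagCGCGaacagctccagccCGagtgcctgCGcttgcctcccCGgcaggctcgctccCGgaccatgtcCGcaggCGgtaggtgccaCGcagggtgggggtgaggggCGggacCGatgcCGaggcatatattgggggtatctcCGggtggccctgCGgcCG

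Over the 21 cytosines read before the Dnmt1 start, the mean methylation was 0.0881% in the 6 wild-type and 0.128% in the 7 heterozygous libraries. The 45 before the Cacna1c start averaged 0.209% and 0.499%, and the 22 before the Tet3 start 0.541% and 1.37%. The 6 read before the Foxd3 start averaged 6.13% and 6.94%, with single wild-type libraries from 2.74% to 11.0%. The limit thus takes in both near-empty and partly methylated stretches.

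Across the tiles the wild-type level was skewed towards the floor. The median was 0.210%, the quartiles 0.118% and 0.896%, and the 95th percentile 3.10%, and 76.8% of tiles lay below 1%. The nearest values on each side of the limit were 4.996% in a tile outside genes nearest D130051D11Rik and 4.986% near the start of Hoxd11, and, just outside, 5.0007% near Scrn1 and 5.0009% inside Obsl1. As a measure of background, 34 cytosines of mitochondrial DNA, taken as unmethylated, read as C at 0.105% to 0.154% in single libraries. The 7159 tiles with a mean over all 15 libraries below 0.2% averaged 0.121% ± 0.00456 (SD, n = 7) in wild-type and 0.131% ± 0.00716 (SD, n = 8) in heterozygous libraries. The mitochondrial value moved with them, at 0.125% ± 0.0162 (SD, n = 7) and 0.140% ± 0.0152 (SD, n = 8), and its part in that difference was not tested.

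Position and sequence went with the level among the tiles. A listed gene start fell inside 60.1% of the tiles below 0.2% and 46.0% of the 4041 from 0.2% to below 1%. Of the 3723 at 1% or more it fell inside 34.8%. The tiles with a neighbouring tile at 5% to 50% had a median of 0.640%, against 0.185% where the measured neighbours were all below 5%. The level did not follow the neighbours all the way, since the 833 tiles with a neighbour at 50% or more had a median of 0.348%. Promoters starting in the lowest tiles held the ETS factor letters CCGGAAG on either strand in 24.8% of cases, those in the middle range in 12.6% and those in the highest in 8.28%, against 9.00% of all promoters. An NRF1 motif of 10 letters was in 2.87%, 1.26% and 0.892%, against 0.963% of all promoters. A core motif of CTCF was in 14.7%, 16.0% and 13.4%, against 8.73% of all promoters. The SP factor letters GGGGCGGGG were likewise in 27.6%, 27.9% and 24.3%, against 11.6%. Median GC content was 65.3% for promoters starting in the tiles and 53% for all promoters, so these shares compare promoters of unlike composition. All these promoters have the same length, 300 bases, and a match is a description and not a site.

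By its title, the series asks whether disruption of Ctcf destabilizes methylation. The mean level over the tiles was 0.872%, 0.841%, 0.902%, 0.638%, 0.620%, 0.636% and 0.654% in wild-type replicates 1 to 7. In heterozygous replicates 1 to 8 it was 0.968%, 0.816%, 0.711%, 0.745%, 0.725%, 0.717%, 1.06% and 0.863%. Genotype means were 0.825% ± 0.129 (SD, n = 8) and 0.737% ± 0.127 (SD, n = 7), a difference of 0.0878 percentage points, below 1 SD of either group, and 0.0546 points without heterozygous replicate 7. Without the 2 libraries it was 0.119 points, 0.840% ± 0.133 (SD, n = 7) against 0.720% ± 0.130 (SD, n = 6), and the groups overlapped in both cases. A mean over chosen tiles was given no test.

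The difference was not alike in the sexes. Among females of the 13 libraries, the 3 heterozygous ones (0.717%, 0.863% and 1.06%) all lay above the 4 wild-type ones (0.620% to 0.654%), with means of 0.879% ± 0.171 (SD) and 0.637% ± 0.0136 (SD). Among males, 1 heterozygous library (0.968%) lay above the 2 wild-type ones (0.872% and 0.902%) and 3 lay below (0.711% to 0.816%). The wild-type males were also older, 52 and 53 weeks against 48 to 50 weeks in wild-type females, so sex and age cannot be told apart within wild-type mice. Files written with 2 decimals gave a difference of 0.0594 points and those with 3 decimals 0.230 points with 13 libraries, and both wild-type files with 3 decimals were female.

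**Figure D1:**
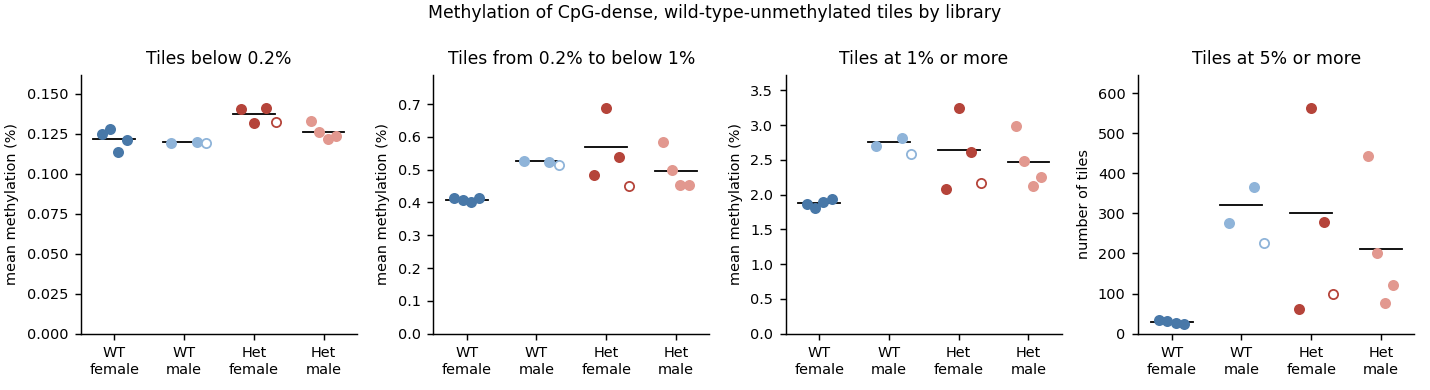
Mean methylation (%) of the tiles in 3 ranges of level, and the number of tiles at 5% or more, by genotype (WT, wild-type; Het, heterozygous) and labelled sex, from 0; each point is a library, lines are means of the filled points, and open points are wild-type replicate 2 and heterozygous replicate 5. The 4 wild-type females sit together (25 to 33 tiles at 5% or more). The labelled wild-type males lie at 227 to 366, within the range of the heterozygous libraries, which spread from 62 to 562.

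The upper tail carried the same pattern. With all 15 libraries, wild-type females had 25 to 33 tiles at 5% or more and wild-type males 227 to 366. Without wild-type replicate 2 the wild-type males had 276 to 366. Heterozygous females had 62 to 562 and heterozygous males 77 to 442. Heterozygous replicate 7, a female, had the most, 562, and also the highest mean level. The 3723 tiles at 1% or more had a wild-type mean of 2.23% ± 0.447 (SD, n = 7) and a heterozygous mean of 2.49% ± 0.429 (SD, n = 8), within 1 SD of each other.

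Tile by tile, the heterozygous mean was above the wild-type mean in 10295 tiles (69.0%) with 13 libraries and in 10249 (68.7%) with 15. Over all 132216 tested tiles of the genome, the shares were 60.9% and 60.5%. The size went the other way: with 13 libraries the median difference was 0.0298 points in members and 0.198 points over all tested tiles. With 13 libraries 37 tiles were more than 2 percentage points higher in heterozygous mice and 0 were more than 2 points lower, but the limit on the wild-type level shapes those counts. Where the limit was set on the heterozygous mean instead, 8 were higher and 6 lower by over 2 points, and the share above was 68.4%. Of all CpG-dense tiles, 172 were below 5% in wild-type and at 5% or more in heterozygous libraries, and 39 the other way round.

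Each tile was tested with quasi-binomial regression on read counts, with sex as covariate and Benjamini-Hochberg adjustment over all tested tiles of the genome. With all 15 libraries, 0 of 14922 tested members were called at an adjusted p under 0.05, as were 0% of all tested tiles, and limma and edgeR also called 0. At an unadjusted p under 0.05 there were 983 members (6.59%), 822 of them higher, against 9.01% of all tested tiles. The smallest adjusted p was 0.245. The tiles of smallest p in each direction were near Tet3, Irgq and Gm41131 (higher) and at Mcoln2, Amdhd2 and Gse1 (lower). At the Mcoln2 start, a gene for a lysosomal cation channel, the mean was 3.91% in the 7 wild-type and 2.75% in the 8 heterozygous libraries.

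With the 13 libraries, 19 members were called (0.127%), against 0.262% of all tested tiles. Higher in heterozygous mice were 16, against a background of 0.213%, and lower were 3, against 0.0492%. The members as a whole were thus called at a smaller share than the genome at large. Groups did not overlap in 53 members that were higher in all heterozygous libraries and in 13 that were lower, beside 0.410% and 0.134% of all tested tiles. With 15 libraries these were 3 (Adora2a, Llgl1 and near Gm41131) and 1 (Man2c1), beside 0.0303% and 0.0113%. Of the 19 calls, 15 were among the 3723 tiles at 1% or more and 4 among the 4041 in the middle range. Among the 7159 tiles below 0.2%, 0 were called. The share called at 1% or more was above the 0.262% of all tested tiles. These ranges were set on the mean over all 15 libraries, so high heterozygous values help place a tile in the upper one. Where the calls fall is thus partly set by the choice of ranges.

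**Figure D2:**
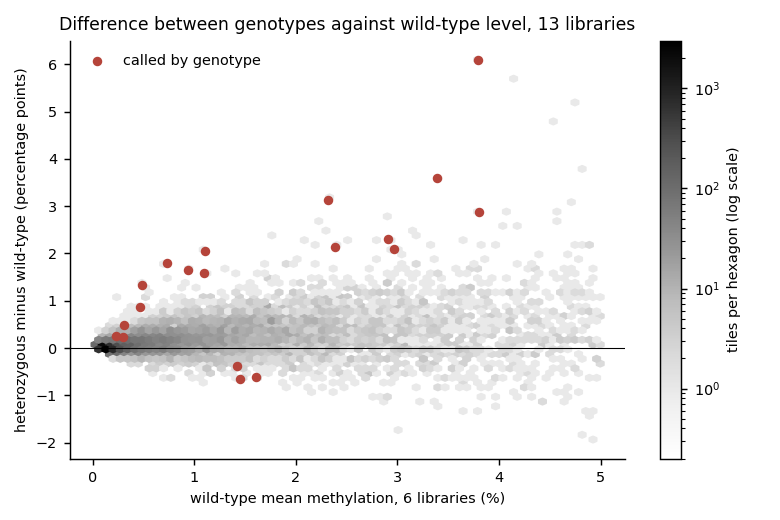
Heterozygous minus wild-type mean methylation (percentage points, 13 libraries) against the wild-type mean (%) for the tiles; hexagon shade is the number of tiles on a log scale and red points are the 19 called tiles. Called tiles reach 6.10 points at Grik5 and 3 lie below 0, while some tiles of similar difference, such as Gm33230 and Colca2 at the upper right, were not called.

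The largest difference was inside Grik5, a kainate receptor subunit gene, at chr7:25010000-25010999. With 13 libraries the level was 2.78% at the lowest, 3.23% at the median and 6.66% at the highest in wild-type, and 7.66%, 8.81% and 12.8% in heterozygous libraries. The groups did not overlap, and the difference was 6.10 percentage points (adjusted p 0.00446). All 98 cytosines of the tile were higher in heterozygous mice, by 0.871 to 16.4 points, so the gain was spread over the tile. Wild-type replicate 2 had 8.26% and heterozygous replicate 5 had 2.88%.

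Near the start of Irgq, an immunity-related GTPase family gene (chr7:24531000-24531999), wild-type libraries had 0.561%, 0.693% and 0.974% (lowest, median, highest) and heterozygous ones 2.08%, 2.40% and 3.30%. Here too no library of a genotype reached the other genotype (difference 1.80 points, adjusted p 0.00112). At the start of Nemp1, an inner nuclear membrane protein gene (chr10:127677000-127677999), wild-type libraries had 0.321%, 0.495% and 0.644% and heterozygous ones 1.48%, 1.80% and 2.39%. It had the smallest adjusted p among the tiles, 0.000172. Unlike Grik5, the change was local, with 21 of 50 cytosines higher and 18 lower, and the cytosine that moved most went from 3.23% to 19.6%.

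Tet3, which encodes an oxidising enzyme of methylcytosine, was called at its start (chr6:83441000-83441999). Wild-type libraries had 0.234%, 0.371% and 0.941%, and heterozygous ones 0.755%, 1.37% and 1.78%, with some overlap (difference 0.867 points, adjusted p 0.0448). Of its 53 cytosines 47 were higher in heterozygous mice. Tet3 also kept its direction with 15 libraries, 1.24% against 0.473%, with an adjusted p of 0.245. The call was kept in only 3 of the 13 fits that left out a library.

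Sox18, an endothelial transcription factor gene, had 1.46%, 2.30% and 3.50% in wild-type and 3.44%, 6.19% and 7.13% in heterozygous libraries at chr2:181670000-181670999 (adjusted p 0.0148). At Fzd5, a Wnt receptor gene (chr1:64736000-64736999), the means were 1.09% ± 0.572 (SD, n = 6) and 2.67% ± 0.596 (SD, n = 7). Beside Synj2, a phosphoinositide phosphatase gene, they were 1.10% and 3.15%, and near Timp2, a metalloproteinase inhibitor gene, 0.312% and 0.795%. At the start of Cacna1c, the pore subunit gene of an L-type calcium channel, 130 cytosines rose from 0.231% to 0.476%, near the floor of the assay. Other higher calls included Dcbld1 (0.298% to 0.530%), the pseudogene Ppp4r1l-ps (2.38% to 4.52%), Gm38293 (0.935% to 2.59%), Gm19963 (3.80% to 6.68%), Gm32817 (2.91% to 5.21%) and a tile 10077 bases from Gm26721 (3.39% to 6.99%). Tiles with a listed gene start were a minority of the higher calls, since only those of Tet3, Cacna1c, Nemp1, Gm32817 and Gm38293 held one. Starts missing from the list could raise that number.

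All 3 lower calls were small. Gm32835 fell from 1.45% to 0.796% with no overlap (adjusted p 0.0228), Amh, the anti-Müllerian hormone gene, from 1.61% to 1.00% (adjusted p 0.0498), and Plekha2, a pleckstrin homology domain gene, from 1.43% to 1.05% (adjusted p 0.0457).

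**Figure D3:**
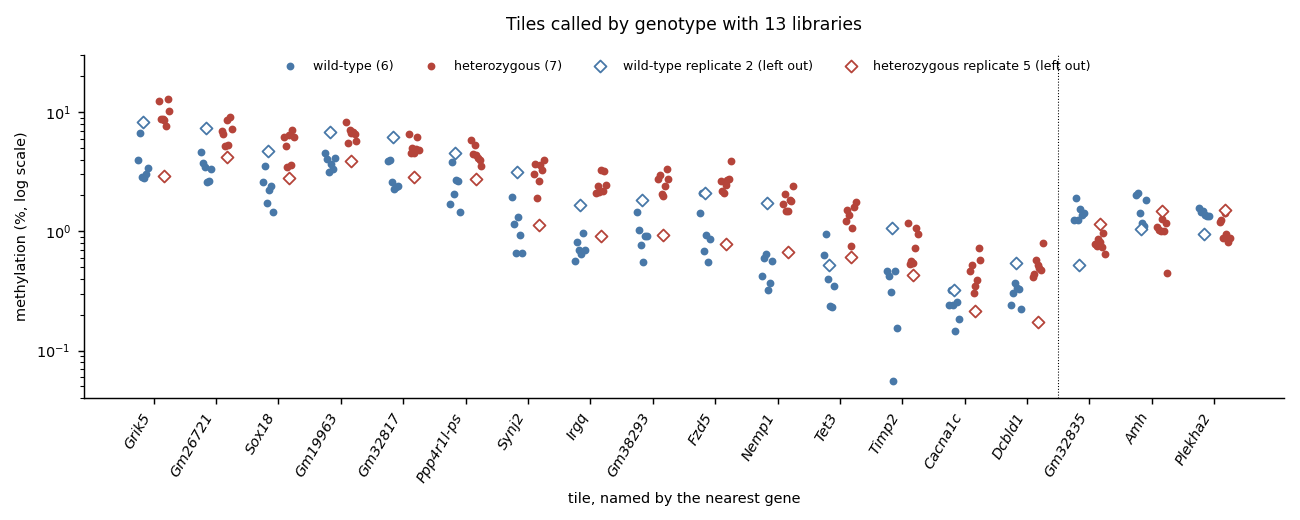
Methylation (%, log axis) of 18 of the 19 called tiles in each library, named by gene; filled points are the 6 wild-type and 7 heterozygous libraries tested and diamonds the 2 libraries left out. Tiles right of the dotted line were lower in heterozygous mice; the blue diamond is beyond the red 1 in the direction of the heterozygous group at 14 of the 15 higher and 3 of the 3 lower tiles drawn.

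The 2 libraries that took no part in these fits or in the limit, apart from the coverage filter, can be read against them. At 15 of the 16 higher tiles wild-type replicate 2 was above heterozygous replicate 5, and at the 3 lower tiles it was below. Wild-type replicate 2 lay nearer the heterozygous mean at 14 of 16 higher and 3 of 3 lower tiles, and heterozygous replicate 5 nearer the wild-type mean at 16 of 16 and 3 of 3. Among the 53 members with higher, non-overlapping groups, wild-type replicate 2 exceeded heterozygous replicate 5 at 46, and among the 13 with lower ones it was below at 11. Over all members wild-type replicate 2 was the higher in 56.0%, and over those at 1% or more in 71.4%.

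Which calls stood depended on the fit. Leaving out a library in turn gave 9 calls (without wild-type replicate 4 or heterozygous replicate 8) to 30 (without heterozygous replicate 3). It gave 10 without wild-type replicate 6 or 7, and 11 without wild-type replicate 5 or heterozygous replicate 7. Grik5, Irgq, Nemp1, Synj2, Gm26721, Gm19963 and Gm32817 were called in all 13 of those fits. With age as a further covariate there were 52 calls, with no moderation of the dispersion 2, and within the 8 files of 2 decimals 0. Where the limit was set on the heterozygous mean there were 14, 10 of them higher. limma called 14 members and 139 of all tested tiles, and edgeR 16 and 207. For the other settings of this paragraph the count over all tested tiles is not given.

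The gene lists followed the level of their tiles. Of 39 Hox genes, the body-axis regulators, 22 had a listed start and 14 a tile, with 23 tiles at a median of 2.41%. The 104 tiles of other developmental transcription factors had a median of 1.87%. Both lie far above the 0.217% of all members. Ribosomal protein genes (52 tiles, 0.138%), Ctcf, cohesin and partners (36 tiles, 0.119%) and genes of Ras signalling and tumour suppression (43 tiles, 0.126%) stood at the floor.

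Among the developmental factors other than Hox, 90 of 104 tiles (86.5%) had a higher heterozygous mean with 13 libraries, against 69.0% of all members, and the median difference was 0.266 points against 0.0298. Members of like level were nearer: of those at 1% or more, 80.7% had a higher heterozygous mean, with a median difference of 0.329 points. With 15 libraries the share for these factors was 79.8%. None of the tiles was called, 16 of 104 had an unadjusted p under 0.05, against 10.5% of all tested tiles, and the tiles share libraries, so the share carries no test. Irx3, a homeobox gene, had the smallest p, with 0.971%, 1.59% and 2.29% in wild-type and 1.87%, 2.82% and 4.63% in heterozygous libraries (adjusted p 0.136). Foxd3 had the largest difference, from 4.35% ± 1.63 (SD, n = 6) to 5.80% ± 1.59 (SD, n = 7), which is within the spread (adjusted p 0.589). For Hox genes 18 of 23 tiles had a higher heterozygous mean and 0 were called. Hoxd1 was at 3.04% and 4.21% (adjusted p 0.597) and Hoxa9 at 4.28% and 3.73% (adjusted p 0.25).

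In 9 of 10 lists the mean over tiles was higher in heterozygous than in wild-type females, and higher in wild-type than in heterozygous males, the exception to both being Ctcf, cohesin and partners. These differences were not tested. All lists share the same 13 libraries, with 2 wild-type males and 3 heterozygous females, so their agreement is not repeated evidence. Over all members the means were 0.637% in wild-type and 0.879% in heterozygous females, and 0.887% and 0.810% in males. Developmental factors other than Hox averaged 1.60% in wild-type females, 2.68% in wild-type males, 2.38% in heterozygous females and 2.24% in heterozygous males. Hox tiles averaged 2.02%, 3.59%, 2.84% and 2.93%. In 2 lists with a median near the floor the gaps were small: ribosomal protein genes averaged 0.402%, 0.373%, 0.425% and 0.364%, and Ctcf, cohesin and partners 0.127%, 0.110%, 0.123% and 0.123%. The ribosomal averages themselves lay above the mitochondrial background.

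**Figure D4:**
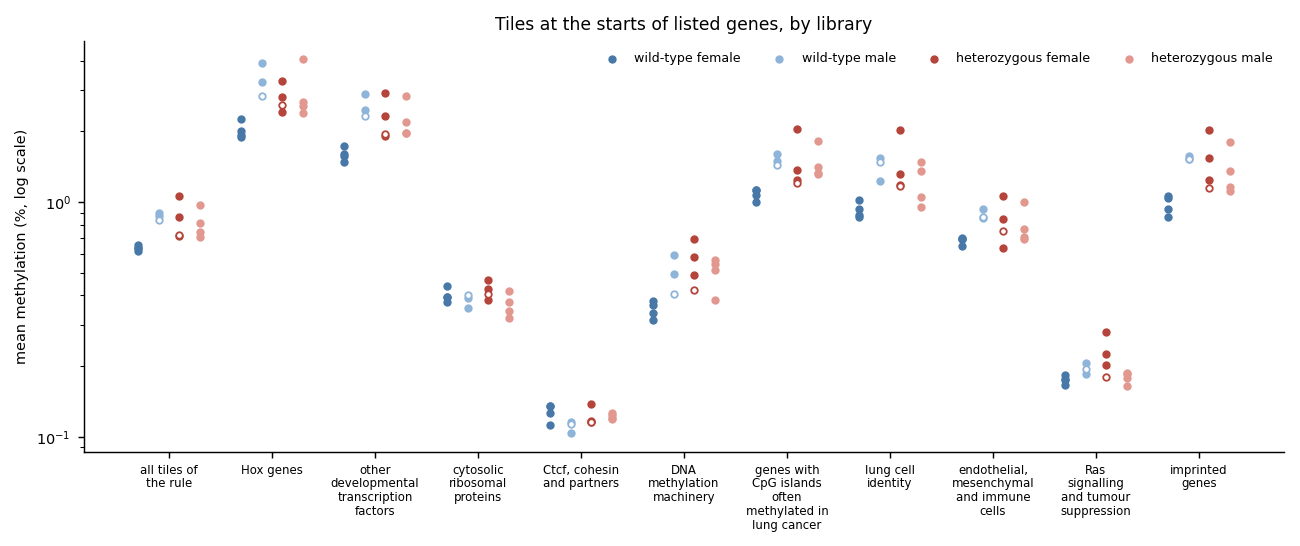
Mean methylation (%, log axis) of the tiles at listed gene starts in each library, by genotype and labelled sex; open points are wild-type replicate 2 and heterozygous replicate 5. Hox and developmental factor tiles stand above 1% in every library, and Ctcf, cohesin and partners near 0.1%.

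Of the methylation machinery, 32 tiles of 19 genes were measured, and Tet3 was the only call. Tet1 (chr10:62887000-62887999) had 1.69%, 2.48% and 6.85% in wild-type and 3.52%, 5.46% and 8.95% in heterozygous libraries (adjusted p 0.522), with wild-type replicate 1, a male, at 6.85%. The Dnmt1 start was at 0.120% and 0.131% (adjusted p 0.995), and at the Tet2 start the heterozygous mean was 0.0128 points above 0.0872% (adjusted p 0.97). The 2 tiles at the start of Ctcf itself were at 0.115% and 0.117% in wild-type and 0.110% and 0.116% in heterozygous libraries. Of 327 members within 20 Mb of Ctcf, 0 were called and 28 had an unadjusted p under 0.05, against 10.5% of all tested tiles. Mau2, a cohesin loader, had the largest difference of its list, from 0.245% to 0.0896% (adjusted p 0.385).

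Genes whose CpG islands are often methylated in human lung cancer had 39 tiles at a median of 1.24%, of which 29 (74.4%, against 69.0% of all members) had a higher heterozygous mean. That share rose with level, and it was 80.7% of the members at 1% or more. An unadjusted p under 0.05 was found at 9 of the 39, against 10.5% of all tested tiles, and 0 were called, against 0.262%. Socs1, a cytokine signalling inhibitor, had 1.59% ± 0.222 (SD, n = 6) and 2.19% ± 0.286 (SD, n = 7), with an adjusted p of 0.152. Sfrp5, a secreted Wnt antagonist, had 2.00% and 3.11% (adjusted p 0.462). Of 17 tiles at genes of lung cell identity 0 were called: Foxa2 had 1.90% and 2.79% and Foxa1, a partner pioneer factor, 0.664% and 1.00% (adjusted p 0.349 and 0.217). Of 35 endothelial, mesenchymal and immune genes 23 had a listed start. Their 15 tiles held 0 calls, and the heterozygous mean was higher in 10 with 13 libraries and in 53.3% with 15. Sox18 is one of the 35 genes, but its called tile, given above, had no listed start within 1000 bases and is not counted here. Kdr, the main VEGF receptor, was at 0.575% and 0.874% and Ikzf1, a lymphoid factor, at 0.893% and 1.13%, while Tal1, a blood and endothelial factor, was at 1.25% and 0.952% (adjusted p 0.641). Of the 43 tiles of Ras signalling and tumour suppression, 23 (53.5%) had a higher heterozygous mean, a smaller share than the 69.0% of all members, and 0 were called. Their median lay below 0.2%, and of all members in that range 61.3% had a higher heterozygous mean. Braf, a kinase below Ras, was at 0.191% and 0.0778% (adjusted p 0.316). Egfr was at 0.923% and 1.31% and Spry2, a feedback inhibitor of receptor signalling, at 0.155% and 0.286%. Imprinted genes had 10 tiles, none called, among them Dlk1 (2.53% and 3.44%) and Phlda2 (0.770% and 1.03%). Rpl18 had the largest difference of the ribosomal genes, 1.41% against 1.10% (adjusted p 0.548), and Rpl38 the smallest p, 0.366% against 0.494% (adjusted p 0.419).

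The tiles of highest heterozygous mean were at Gm33230, Grik5 and Colca2. Gm33230 went from 1.46% to 8.44% across wild-type and from 6.02% to 19.7% across heterozygous libraries, and Colca2 from 2.26% to 6.94% and from 3.56% to 14.6%. Their adjusted p were 0.323 and 0.228, and libraries of the genotypes overlapped at both. At both, all measured cytosines had a higher heterozygous mean.

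Spread between mice was measured as the variance of the level between libraries of a genotype, less the binomial sampling variance, averaged over tiles. With 15 libraries the wild-type value was 0.154 and the heterozygous value 0.172, in squared percentage points. With 13 they were 0.153 and 0.176. Within females of the 13 it was 0.249 against 0.0442, and within males 0.139 against 0.0912 with only 2 wild-type males. The wild-type value over both sexes includes the gap between its males and females. Heterozygous variance was the larger in 54.5% of members with 13 libraries, against 53.5% of all tested tiles. Leaving out heterozygous replicate 7 turned the difference over 15 libraries from 0.0180 to -0.0280.

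A test of the spread at each tile, by limma on absolute deviations from the genotype mean, called 0 members with 13 libraries and 0 with 15, beside 0.00756% and 0.0106% of all tested tiles. At an unadjusted p under 0.05 there were 229 (1.53%) and 242 (1.62%), against 7.56% and 7.14% of all tested tiles. The moderation pooled members with far more variable tiles. With 13 libraries the median heterozygous variance was 0.00793 squared points in members and 4.69 over all tested tiles. The test was therefore strict for members, and the 0 calls do not show equal spread. The heterozygous spread was the smaller in 138 of the 229 and 155 of the 242, the opposite of the mean variance. With deviations taken from the mean of each genotype and sex, 809 and 733 members had an unadjusted p under 0.05. Here 0 members were called, beside 11 and 40 of all tested tiles. With 13 libraries the 2 wild-type males have equal deviations by construction. The direction, and the share of all tested tiles at that unadjusted p, are not given for this setting. The smallest p for a larger heterozygous spread were near Fhl3 (wild-type 1.92% to 3.92%, heterozygous 1.39% to 4.80%), Ppargc1a (0.687% to 1.00% and 0.927% to 2.75%) and inside Gm30875 (0.676% to 1.06% and 0.305% to 1.29%). A smaller heterozygous spread was nearest at Cacna1b (0.485% to 2.06% and 0.935% to 1.43%) and Msc (0.574% to 2.16% and 1.39% to 2.07%). At Cacna1b and Msc, wild-type replicates 1 and 3 (male) and 7 (female) were high and wild-type replicates 4 to 6 (female) low.

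At some tiles a single mouse stood well above all others. In 16 members a library was at least 2 percentage points above every other library and at least 3 times the next, a rule set after the values were seen. Heterozygous replicate 7 held 8 of these, and heterozygous replicate 2, wild-type replicate 4 and wild-type replicate 5 held 2 each. At the start of Sf3b6, a splicing factor gene, heterozygous replicate 2 had 3.06% and the next library 0.471%. The Tgfbr2 start, a TGF-beta receptor gene, was at 3.25% in heterozygous replicate 5 and at most 0.215% elsewhere, and Pnn, near its start, at 3.18% in wild-type replicate 5 and at most 0.190% elsewhere.

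By sex, 0 members were called with 13 libraries, beside 0.00605% of all tested tiles (0.00303% in each direction), and 0 with 15 libraries, beside 0%. limma also called 0. At an unadjusted p under 0.05 there were 935 with 13 libraries, against 7.41% of all tested tiles, and 1169 with 15, against 8.41%. The smallest p were at Sptbn4, near Map3k9, near Tmem200b, near Pdlim4 and beside Hoxa11os. At Sptbn4, a spectrin gene, wild-type males averaged 2.59% and wild-type females 1.92%, heterozygous males 2.43% and females 2.14%. By age, added to genotype and sex, 0 members were called, beside 0% of all tested tiles, and 2097 (14.1%) had an unadjusted p under 0.05 against 8.75% of all tested tiles, 1947 of them with a higher level at higher age. With 15 libraries 1 was called, lower with age (Aen, adjusted p 0.0311), beside 0.000756% of all tested tiles, and 814 had an unadjusted p under 0.05, against 5.19%. The smallest p were at Aen (2 adjacent tiles), near Metrn and at Sf3b6. At Aen, a p53-responsive nuclease gene, heterozygous replicate 2, the youngest mouse, stood at 3.05% and 3.08% while the other heterozygous libraries reached at most 0.255% and 0.695%. In the first of these tiles wild-type replicates 4 and 7 were also high, at 2.01% and 1.66%.

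A term for genotype by sex called 45 members (0.302%) with 13 libraries, beside 0.277% of all tested tiles. In all 45 the heterozygous difference was smaller or reversed in males, beside 0.132% of all tested tiles in that direction and 0.145% in the other. The 5 of smallest p, named after their values were seen, were Bad, Ckap4, Trip10, Emb and Galntl6. At Trip10, a Cdc42 effector gene, wild-type females averaged 1.21%, wild-type males 3.56%, heterozygous females 3.87% and heterozygous males 2.42% (adjusted p 0.0296). At the start of Ckap4, an endoplasmic reticulum membrane protein gene, the averages were 0.647%, 1.04%, 1.21% and 0.836% (adjusted p 0.0289). With only 2 wild-type males the count was unstable: it was 0 with age as a covariate, 8 with the dispersion prior fitted in bins of level, and 0 by limma. With all 15 libraries it was 1 (near Cdk5r2, adjusted p 0.048), beside 0.0734% of all tested tiles (0.0469% and 0.0265% by direction). Leaving out any of the 13 libraries moved it by over 1.5 times, from 0 (without wild-type replicate 1, 4, 5 or 6 or heterozygous replicate 8) to 529 (without heterozygous replicate 1) and 901 (without heterozygous replicate 6).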

How the data were processed

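Per the submitters' processing notes, reads were aligned with Bismark to mm10 and methylation was called with methylKit, whose versions are not given in the sources used here. Per the file headers, the authors deposited for each CpG cytosine its coverage as a read count (10 or more) and the percent of reads with C and with T, with 2 decimals in 9 files and 3 in 6. Percentages were turned back into read counts. The level of a tile is the mean percent over its cytosines listed in all 15 libraries. Tests used tiles with at least 3 such cytosines, without the top 0.1% of cytosines by coverage in any library. Read counts were fitted by quasi-binomial regression (Python 3.11.15, numpy 2.4.6), with an F test, a dispersion moderated as in limma and held at 1 or more, and Benjamini-Hochberg adjustment over all tested tiles. Spread used limma 3.58.1, applied to how far each arcsine-transformed level lay from its genotype mean. limma on log ratios (2 reads added) and edgeR 4.0.16 were alternatives. The fits were tested on simulated data, where for spread all unchanged tiles had the same SD, unlike the real tiles. Gene positions and promoter sequences came from RefSeq (GRCm38.p6), matched by symbol, with no promoters for chromosome 18 and none for many genes elsewhere. Reads carry no molecular identifiers, so depth states counting precision only. Replicate numbers follow sample order and pair no animals; animals are the replicates.

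Tiles, gene lists and tests were chosen with earlier results of these data known. Tiles named in the text were the 10 largest called changes in each direction with 13 libraries, the smallest p for the other tests, the tiles nearest the limit, the 3 of highest heterozygous mean and 2 per gene list. The other called tiles, the genotype by sex examples, the single-mouse tiles, Tal1, Braf and the tiles behind counts of 3 or fewer with 15 libraries were added after their values were seen. Some results are not reported here.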

Additional observations from a re-analysis of the deposited data

Results flagged for a closer look

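Of 162 groups of libraries examined for a value far from the rest, 21 held one, where chance flags about 1 group in 20. Most groups were tiles named for their values in these same data, and the values are not independent. That rate is therefore no yardstick for the count. Wild-type replicate 2 stood apart from the other wild-type libraries in coverage over Ctcf (3.01, next 5.23) and was the highest of them at Gm26721 (7.42%), Gm19963 (6.81%), Irgq (1.65%), Ppargc1a (1.51%), Nemp1 (1.73%) and Timp2 (1.08%), and the lowest at Plekha2 (0.951%). Wild-type replicate 3 was far above the others near Fhl3 (3.92%) and Metrn (4.13%), and wild-type replicate 1 at Tet1 (6.85%). Among heterozygous libraries, replicate 7 was far above the rest at Foxa1 (1.60%), Egfr (2.26%), Spry2 (0.599%) and Galntl6 (4.01%), replicate 2 at both Aen tiles (3.05% and 3.08%) and Sf3b6 (3.06%), replicate 1 near Tmem200b (7.28%) and replicate 5 near Gse1 (2.54%). Replicate 8 was far below at Amh (0.448%).

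The genotype difference itself differed between the sexes at 45 tiles (0.302%, beside 0.277% of all tested tiles) by a test of the interaction term (quasi-binomial regression, adjusted p under 0.05), with the unstable counts given in the report.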

How the results depend on the processing

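With 15 libraries, each of the other settings run kept 0 members called by genotype, and leaving out 1 library gave 0 to 2 (2 without wild-type replicate 2). The 19 calls with 13 libraries became 2 with unmoderated dispersion, 52 with age as covariate, 0 within files of 2 decimals, 10 for tiles of at least 40 cytosines and 12 for a limit of 2%, and 9 to 30 with 1 library left out. Counts over all tested tiles in these settings are not given, so a change of the members alone cannot be read from them. The 45 calls of genotype by sex became 8 with a prior in bins of level, 0 with age as covariate, 1 with 15 libraries, 0 by limma, and 0 to 901 with 1 library left out. The prior in bins, age in the interaction fit, the 15 libraries there and subtraction of mitochondrial percent C were chosen after seeing the data. Sex and age with 13 libraries, and spread with 13 or 15, called 0 members in every setting run. With 1 library left out, the genotype difference in mean level ran from 0.0546 (without heterozygous replicate 7) to 0.115 points, that in the share of tiles at 5% or more from 0.285 (without that library) to 0.854 points (without wild-type replicate 3) around 0.603, and that in variance from -0.0280 to 0.0466. Within files of 3 decimals the variance difference was 0.103. The cause of these shifts was not tested, except that fewer tiles or libraries enter where they are left out. No paired analysis was possible because the replicate numbers were given in sample order and pair no animals. Levels near 0.1% are close to the mitochondrial background, and no detection limit was computed there.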
